A study of Mus musculus with 134 samples.

Results

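Libraries of total RNA that were made with 3 amounts, either 300 ng, 3 ng or 30 pg, were compared gene by gene. They were chosen by their titles, which name the amount of RNA, and they are 6 of the 54 bulk count libraries and of the 134 samples of the series, with 2 libraries for each amount. The RNA came from ES-E14TG2a cells (E14), a mouse embryonic stem cell (mESC) line of the 129/Ola strain, which were grown with serum and leukemia inhibitory factor (LIF), were untreated and had no antibody added in any of the 3 groups. Total RNA was column-purified, treated with DNase, diluted in steps of 100 and reverse transcribed from oligo dT, and Tn5, a transposase, cut and tagged the resulting RNA:DNA hybrids directly. These libraries are dilutions of purified RNA and not cells, although 30 pg is close to the RNA of 1 mESC by the study's own account. The labels give no batch, and they do not say whether the 2 libraries of an amount came from separate cultures, so each p-value measures the spread between these libraries, which may be technical.

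An oligo dT primer anneals to the poly(A) tail that most mRNAs carry, and it can also anneal to runs of A inside a transcript. Ribosomal RNA, the most abundant RNA of a cell, has no such tail. Neither have the mRNAs of replication-dependent histones, which end in a conserved stem-loop, the RNA components of the RNase MRP and RNase P ribozymes, or the nuclear long noncoding RNA Malat1. When less RNA enters a reaction, a transcript present in few copies may be carried over by chance or not at all, and PCR then multiplies whatever was carried over.

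The precursor rRNA gene Rn45s was at 17.4% to 18.2% of the counts in 300 ng libraries, at 78.5% to 84.6% in 3 ng libraries and at 64.7% to 68.1% in 30 pg libraries, and it was removed before everything that follows. Outside Rn45s the 300 ng libraries held 5133956 and 14073243 read pairs, those of 3 ng held 1959402 and 3310072, and those of 30 pg held 2743951 and 323449. Levels are CPM, a gene's counts in every 1000000 of these remaining counts. Libraries were also brought to 323449 counts, the smallest of these totals, by the exact expectation of random thinning, which is called equal depth here. All 15 listed markers of embryonic stem cells, Pou5f1 (Oct4), Sox2 and Nanog among them, had counts in each of the 6 libraries. The listed markers of other tissues summed to at most 0.00433% of the counts in any library. Among 10 primitive endoderm markers Lama1, a laminin chain, and among 11 fibroblast markers Fn1 (fibronectin) and Vim (vimentin) took nearly all counts of their lists, which summed to 0.0139% to 0.0311% and 0.168% to 0.235% of the counts.

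At equal depth, going from 300 ng to 3 ng left the number of genes found nearly the same, and the 30 pg libraries held fewer. The expected number of genes with at least 1 count was 11068 and 11109 in the 300 ng libraries, 11114 and 11156 in the 3 ng libraries, and 8006 and 6330 in the 30 pg libraries. The 3 ng libraries thus held 100.4% of the genes of the 300 ng libraries, and the 30 pg libraries held 64.6%. Both 30 pg libraries lay far below the other 4, and they also differed most from each other (SD 1185, against 28.6 with 300 ng and 29.9 with 3 ng, n = 2 each). An exact two-sided permutation test for an ordered trend over the 90 ways to give 6 libraries to 3 amounts gave p = 0.578, adjusted p = 0.578 over the 3 values tested in this way, and the smallest p it can give is 0.0222. Genes with at least 5 counts numbered 7324 and 7309 in the 300 ng libraries, 7554 and 7592 in the 3 ng libraries, and 7043 and 5375 in the 30 pg libraries, so the 30 pg libraries then held 84.9% of the number found with 300 ng.

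Loss with 30 pg depended on how strongly a gene was expressed. Genes were grouped by their mean RPKM (CPM per kilobase of exon) in the 6 libraries of the Tn5-amount experiment, which take no part in the comparison. Of the 5606 genes of 1 to 10 RPKM, 84.0% and 84.3% were expected at equal depth with 300 ng, 81.8% and 82.1% in the 3 ng libraries, and 50.2% and 34.1% with 30 pg. The 3 amounts did not overlap and fell in order, which gave the smallest possible p of 0.0222 and an adjusted p of 0.0667 in the exact permutation test over the 6 libraries, so the trend missed the threshold after adjustment. The order was lost when 5 counts were required, with 40.9% and 40.6%, 46.1% and 46.3%, and 40.7% and 26.9% (exact permutation test, adjusted p = 0.844), and with levels from ligation-based libraries (adjusted p = 0.578), where 3 ng lay above 300 ng and 30 pg had 43.4% and 28.7%. Of the 4375 genes of 10 to 100 RPKM, 99.3% were expected in each 300 ng library and 98.9% and 99.0% in the 3 ng libraries, but 88.8% and 72.5% with 30 pg. Among the 891 genes of at least 100 RPKM, the 30 pg libraries still held 99.2% and 96.0%. In the 4138 genes of 0.1 to 1 RPKM, 24.6% and 25.1% were expected with 300 ng, 28.5% and 28.3% in the 3 ng libraries, and 9.10% and 7.01% with 30 pg, so the 3 ng libraries lay slightly above the 300 ng libraries for weakly expressed genes.

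**Figure D1:**
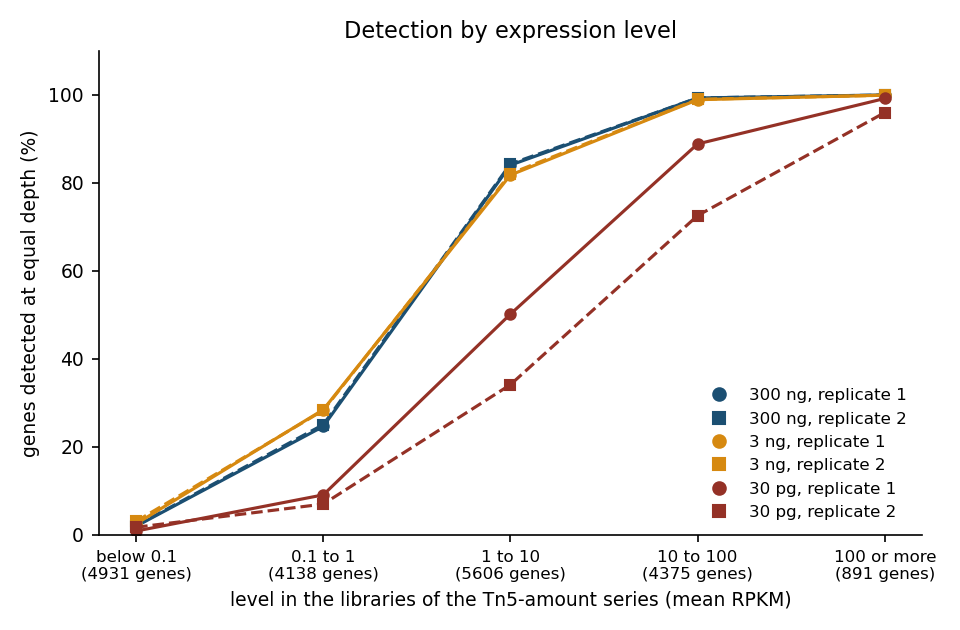
Share of genes expected with at least 1 count at a depth of 323449 counts (y axis, %) in each of the 6 libraries, for genes grouped by their mean RPKM in the Tn5-amount libraries (x axis). The 300 ng and 3 ng curves run together, with 81.8% to 84.3% of the genes of 1 to 10 RPKM, where the 30 pg libraries hold 50.2% and 34.1%.

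In numbers of genes, the loss with 30 pg reached well into transcripts that 300 ng measured without difficulty. These numbers are at full depth, where the smaller 30 pg library held only 323449 counts, and the part of depth in them was not tested. Among the 2128 genes with a mean of at least 100 CPM with 300 ng, 2 had no count in either 30 pg library and 108 had none in 1 of the 2. Among the 1712 genes of 50 to 100 CPM, 20 were missing from both and 367 from 1. Among the 4311 genes of 10 to 50 CPM, 620 were missing from both and 1890 from 1, and among the 3834 genes of 1 to 10 CPM, 2373 and 1177. With 3 ng the same groups lost 49 genes of 1 to 10 CPM from both libraries and none above 10 CPM from both.

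The 2 most strongly expressed genes lost with 30 pg encode mitochondrial proteins. Coq9, which is needed for coenzyme Q synthesis, had 136 and 152 CPM with 300 ng and 64.8 and 57.1 CPM with 3 ng, and no count in either 30 pg library. With a floor of 3 counts over both 30 pg libraries, its level was at least 151-fold lower than with 300 ng. Atad3a, an ATPase of the mitochondrial inner membrane, had 101 and 137 CPM with 300 ng and 119 and 111 CPM with 3 ng before it, too, had none with 30 pg, at least 130-fold lower. Coq9 had already fallen with 3 ng (log2 fold change -1.35 ± 0.19 SE, edgeR adjusted p = 6.41e-07), whereas Atad3a gave -0.16 ± 0.19 (edgeR adjusted p = 0.495). Rrp36, a ribosome biogenesis factor, had 92.1 and 101 CPM with 300 ng and was at least 101-fold lower with 30 pg. The next 5 genes of this kind were Osbpl7, a member of the oxysterol-binding protein family, Chchd1, Tm2d2, Tmem205 and Hagh, a glyoxalase, with mean levels that were at least 64.9-fold to 74.4-fold lower with 30 pg. For Coq9, Atad3a and Rrp36 the edgeR adjusted p was 0.0495, and for the other 5 it was 0.0511 to 0.0553. All of them were chosen for having no count with 30 pg, so nothing is read from these p-values with 30 pg.

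The genes missing from both 3 ng libraries were all weak. Cpne9, a copine, was the strongest of them with 3.70 and 3.98 CPM in the 300 ng libraries, and it was at least 6.86-fold lower with 3 ng (edgeR adjusted p = 0.00011). It was chosen for having no count with 3 ng and passed the filter on low counts only through 300 ng, so nothing is read from its p. Snora61, a small nucleolar RNA, the noncoding RNA Dubr, and the coding genes Olfm2, Megf6, Gpha2, Ccdc159 and Plin5 followed, at 1.49 to 2.56 CPM in the 300 ng libraries. None of these 8 genes had a count with 30 pg. A library of 3 ng cannot show such genes well, since 3 counts in it are worth 0.906 to 1.53 CPM, and in the smaller 30 pg library they are worth 9.28 CPM.

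Genes absent with 300 ng and present with less RNA were few. Of the 8112 genes without a count in either 300 ng library, 4 had counts in both 30 pg libraries and 30 in both 3 ng libraries. Inhba, the activin A subunit, had 64 and 5 counts with 30 pg (23.3 and 15.5 CPM) and none in the 300 ng and 3 ng libraries, so its level was at least 144-fold higher than with 300 ng (edgeR adjusted p = 0.0505). Serpina1a, a liver protease inhibitor, had 14 and 4 counts with 30 pg and was at least 37.6-fold higher (edgeR adjusted p = 0.0495). Both genes were chosen for having no count with 300 ng, and they passed the filter on low counts only through 30 pg. Nothing is therefore read from their p. The noncoding RNAs 9130019P16Rik and 9330158H04Rik had 89 and 1 and 5 and 2 counts. With 3 ng the 8 highest of the gained genes had 2 to 7 counts per library, among them Gm10324, Mab21l2, Gk2, Depdc1a and the histone H2bc8. Each gained gene with 3 ng thus lay near the limit of detection.

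What 30 pg kept, it kept unevenly. Several genes with at least 65 counts in 1 of the 30 pg libraries had none in the other. Cnot11, a subunit of the CCR4-NOT deadenylase, had 885 counts in the first 30 pg library (323 CPM) and none in the second, while it lay at 100 to 141 CPM in the other 4 libraries. Ddah2, Clns1a, Impdh2, Plcb3, Ptbp1, Laptm5 and Rdx had 237 to 286 CPM in the first library and none in the second. Ptbp1, a splicing repressor, and Impdh2, an enzyme of guanine nucleotide synthesis, are among them. In the other direction, Cdc42bpb, a kinase that acts with Cdc42, had 92 counts in the second library (284 CPM) and none in the first, against 40.2 to 76.2 CPM with more RNA. Kat8, Cops7b, Frmd6 and Epm2aip1 had 70 to 83 counts in the second library and none in the first, and so had, by the same rule, Usp30, Hsdl1 and Mettl8. Epm2aip1 reached 216 CPM there although it had 5.19 to 5.26 CPM with 300 ng.

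The spread between replicates was widest with 30 pg. For genes of 10 to 100 RPKM found in both replicates, the median absolute log2 ratio between replicates was 0.23 with 300 ng, 0.20 with 3 ng and 0.93 with 30 pg. For genes of at least 100 RPKM it was 0.20, 0.13 and 0.51, and for genes of 1 to 10 RPKM 0.28, 0.36 and 1.29. At equal depth, 83.4% of the genes of 1 to 10 RPKM found in either replicate were shared by both with 300 ng, 82.6% with 3 ng and 41.6% with 30 pg. For genes above 10 RPKM the 3 ng replicates thus lay no farther apart by this median than the 300 ng replicates, while 2.16% of genes of 10 to 100 RPKM differed beyond 2-fold with 3 ng and 0.617% with 300 ng. The smaller 30 pg library held far fewer counts than the other, and with 2 libraries the part of this depth gap in the spread was not tested.

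**Figure D2:**
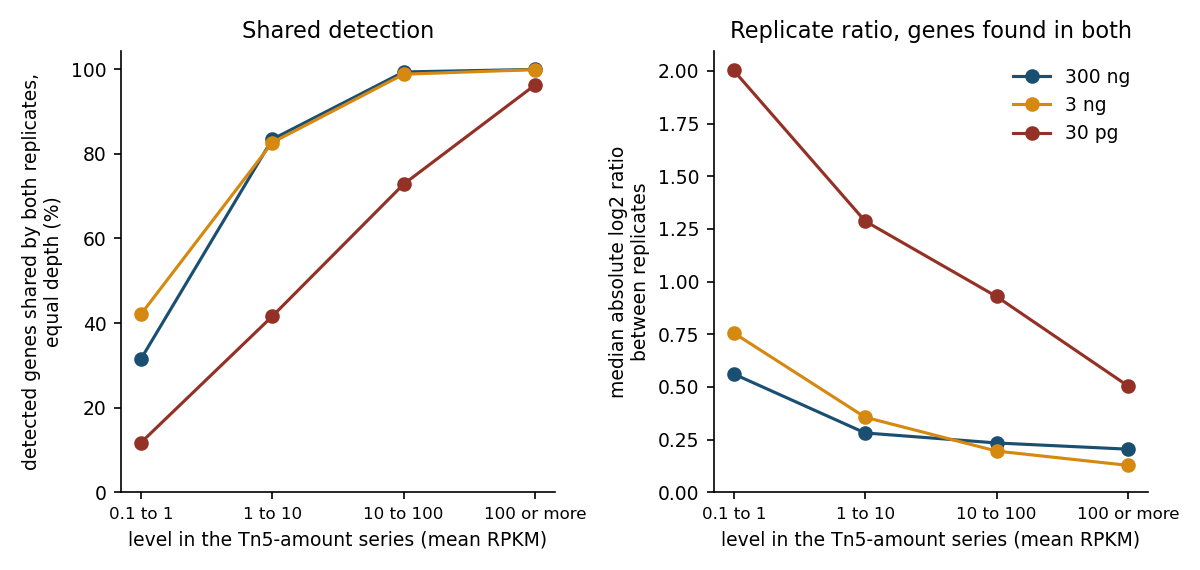
Left, share of the genes detected in either replicate that both replicates held at equal depth (%). Right, median absolute log2 ratio of CPM between the 2 replicates for genes with counts in both. Both are plotted against the level in the Tn5-amount libraries (mean RPKM), with 1 line for each RNA amount. The 30 pg line lies apart from 0.1 RPKM upwards, with 41.6% shared at 1 to 10 RPKM and a ratio of 0.51 even at 100 RPKM or more.

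At equal depth outside Rn45s 3 ng held as many genes as 300 ng, whereas at equal total counts with Rn45s it held 81.9% of them and without thinning 86.1%. Between 3 ng and 300 ng, 5833 of 11087 genes passed the test in edgeR (quasi-likelihood, adjusted p below 0.05), 2884 of them (26.0%) higher and 2949 (26.6%) lower with 3 ng. When libraries were first thinned to equal depth, 2346 of 6002 passed. Over all genes tested the median log2 fold change was -0.03. Log2 fold changes come from the fit, which rescales libraries (TMM), so they differ from ratios of mean CPM. The CPM of the 2 amounts did not overlap for 4552 genes (41.1%) that were higher and 3929 (35.4%) that were lower with 3 ng. Between 30 pg and 300 ng, 889 of 10504 genes passed, 17 of them (0.162%) higher and 872 (8.3%) lower with 30 pg, around a median of -0.48, and levels did not overlap for 1819 (17.3%) and 3952 (37.6%). Most falls with 30 pg were of weak genes by the Tn5-amount libraries. They were 170 of 521 tested at 0.1 to 1 RPKM and 643 of 4736 at 1 to 10 RPKM. At 10 to 100 RPKM 34 of 4344 fell, and at 100 RPKM or more 25 of 891. Between 30 pg and 3 ng, 0.0% of 9724 genes passed in either direction in edgeR around a median of -0.32, while 1917 genes had an unadjusted p below 0.05 and DESeq2 called 109. Both comparisons with 300 ng share the same control libraries, so they are not independent of each other.

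The calls with 30 pg stood at the threshold and should be read as values with a wide error. Their smallest adjusted p was 0.0495, the biological coefficient of variation was 0.767 against 0.141 for 3 ng and 300 ng, and no gene passed in edgeR with DESeq2 size factors, with Rn45s kept or at equal depth, where 2714, 3141 and 725 genes had an unadjusted p below 0.05. For 3 ng against 300 ng the number of edgeR calls was 0 when the 30 pg libraries were put in the same fit and shared 1 estimate of the spread, with 1558 genes at an unadjusted p below 0.05.

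Replication-dependent histones took a larger share of the counts with less RNA. These genes supply histones during DNA replication, and their mRNAs end in a stem-loop that stands in for the poly(A) tail. Their 3' ends are shown for the 3 members that lead the changes and for H2ac8, the most abundant, to place the absence of a tail in the sequence. Each stretch is 30 bases on mouse chromosome 13 of mm9, read from the reference genome of that build along the gene's strand, with the 16 bases of the stem-loop in capitals.
H1f4, chr13:23713644-23713673, minus strand: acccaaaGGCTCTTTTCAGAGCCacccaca
H1f5, chr13:21871699-21871728, minus strand: ccccaaaGGCTCTTTTCAGAGCCacctaga
H4c4, chr13:23673812-23673841, plus strand: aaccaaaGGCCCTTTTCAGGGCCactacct
H2ac8, chr13:23662530-23662559, minus strand: aaacaaaGGCTCTTTTCAGAGCCattcact
In each of these the stem-loop ends 4 or 5 bases before the annotated end of the last exon. A looser form, the 16 letters of H1f4 with any base at positions 3, 4, 10, 13 and 14, was searched on the gene's strand in the exons and the 50 bases after them. It was found in 56 of the 69 listed histone genes (81.2%) and in 79 of all 25208 genes (0.313%). Of the 23 genes outside the list that hold these letters, 14 were tested with 3 ng, and 2 of them rose and 8 fell, beside 26.0% higher and 26.6% lower over all genes. The 3 tested histones without these letters all rose, with a median of 3.59 against 2.58 for the 27 tested with them.

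The histone list took 0.0212% and 0.0178% of the counts with 300 ng, 0.115% in each 3 ng library, and 0.134% and 0.117% with 30 pg, so the 300 ng libraries lay well below the other 4. Of all 69 members, 38 had both 3 ng libraries above both 300 ng libraries and 2 had them below, while 11 had no count in any of the 6. Over all genes tested, levels did not overlap for 41.1% that were higher and 35.4% that were lower. In the comparison of 3 ng with 300 ng, 30 members were tested, 25 rose and none fell (edgeR), with a median log2 fold change of 2.60. Of these 30, 21 passed the filter on low counts only through their level with 3 ng, which favours a rise. Among the 9 that passed it in the 300 ng libraries alone, 6 rose and none fell, with a median of 1.82. With 30 pg, 20 and 15 members had counts at full depth, against 50 and 53 with 300 ng and 53 in each 3 ng library. At equal depth, 16.6 and 15.0 members were expected with 30 pg, 18.8 and 17.1 with 300 ng, and 34.8 and 34.4 with 3 ng. Of 14 tested with 30 pg, 2 rose and 1 fell, beside 0.162% higher and 8.3% lower over all genes tested.

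H1f4, a linker histone on chromosome 13 (23713646 to 23714427), had 5.26 and 4.55 CPM with 300 ng, 264 and 224 CPM with 3 ng, and 114 and 145 CPM with 30 pg. It rose with 3 ng (log2 5.56 ± 0.24 SE, edgeR adjusted p = 4.04e-19) and with 30 pg (log2 4.40 ± 0.58, edgeR adjusted p = 0.0495). The ratio of mean CPM to that with 300 ng was 49.8 and 26.4. No 300 ng library came near the others. H4c4, a core histone H4 gene, went from 0.584 and 2.70 CPM to 79.1 and 94.6 CPM with 3 ng (log2 5.31 ± 0.33, edgeR adjusted p = 2.26e-14) and had 36.4 and 136 CPM with 30 pg (edgeR adjusted p = 0.0929). It passed the filter on low counts (2.37 CPM) only through its level with 3 ng, which favours a rise, so nothing is read from its p with 3 ng. H1f5, another linker histone, went from 10.9 and 13.9 CPM to 130 and 153 CPM, and to 129 and 170 CPM with 30 pg (log2 3.38 ± 0.22 and 3.27 ± 0.50, edgeR adjusted p = 6.45e-14 and 0.0495). H2ac8 had 106 and 82.3 CPM with 300 ng, 378 and 332 CPM with 3 ng, and 474 and 368 CPM with 30 pg, of which the change with 3 ng passed the test (log2 1.82 ± 0.18, edgeR adjusted p = 7.79e-10). Members that did not follow include H2bc4, with 22.2 and 14.6 CPM with 300 ng and 10.7 and 16.3 CPM with 3 ng, and H4c14, with 3.90 and 5.68 CPM and 3.06 and 2.42 CPM. Histone genes of a family are near copies of each other, and read pairs that map to several places were not counted, so the levels of single members are uncertain.

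Malat1, Rmrp and Rpph1, which lack a poly(A) tail, were each higher with 3 ng, while the listed small nucleolar and Cajal body RNAs, which lack one too, took 0.00695% and 0.00777% of the counts with 300 ng and 0.00796% and 0.00743% with 3 ng. Malat1 had 122 and 108 CPM with 300 ng, 743 and 686 CPM with 3 ng, and 645 and 878 CPM with 30 pg. It rose with 3 ng (log2 2.53 ± 0.17 SE, edgeR adjusted p = 1.41e-13) and with 30 pg (log2 2.40 ± 0.22, edgeR adjusted p = 0.0495), and none of the smaller amounts overlapped with 300 ng. Of 12 listed nuclear long noncoding RNAs, 7 were tested with 3 ng, 5 rose and none fell, with a median of 1.75, and Malat1 was the 1 called with 30 pg. Of all genes tested with 3 ng, 26.0% rose and 26.6% fell. The exons of Malat1 had a GC content of 42.5%, and 66.7% of the tested genes with up to 45.9% GC rose with 3 ng. The part of GC content in these rises was not tested. Kcnq1ot1, an imprinted antisense RNA, had 9.35 and 6.96 CPM with 300 ng and 23.0 and 33.5 CPM with 3 ng (log2 1.75 ± 0.30, edgeR adjusted p = 1.44e-05). The imprinted RNA Meg3 did not pass, with 68.6 and 69.6 CPM against 48.0 and 79.8 CPM (edgeR adjusted p = 0.454). Rmrp, the RNA of RNase MRP, had 18.7 and 32.4 CPM with 300 ng, 98.0 and 144 CPM with 3 ng, and 109 and 105 CPM with 30 pg (edgeR adjusted p = 5.66e-09 with 3 ng and 0.168 with 30 pg). Rpph1, the RNA of RNase P, had 8.0 and 13.3 CPM, then 52.1 and 67.1 CPM, then 84.5 and 37.1 CPM (edgeR adjusted p = 1.28e-08 and 0.262). Rmrp and Rpph1 were the 2 of 8 small structural RNAs with enough counts to be tested. The share of Rn45s, whose RNA has no tail either, was also higher with 3 ng and 30 pg than with 300 ng, though lower with 30 pg than with 3 ng. Its part in these levels was not tested.

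**Figure D3:**
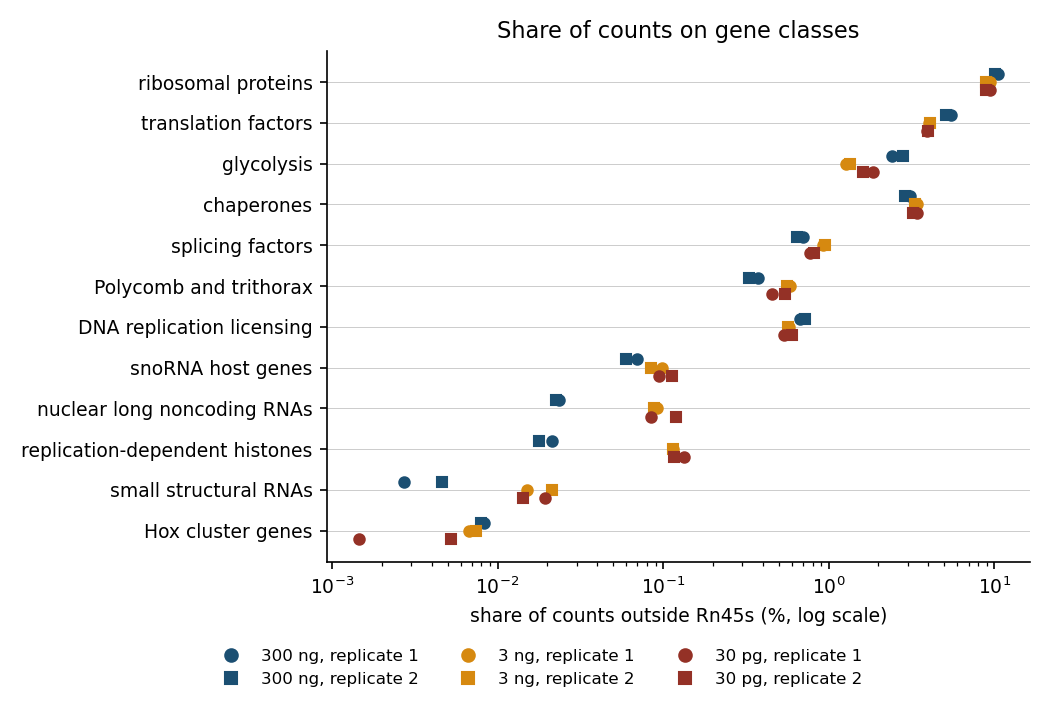
Share of the counts outside Rn45s (x axis, %, log scale) on listed gene classes in each of the 6 libraries. The histones lie near 0.02% with 300 ng and above 0.11% with 3 ng and 30 pg, whereas ribosomal proteins stay between 8.90% and 10.5%.

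Lars2 led all genes with 30 pg. Lars2 encodes the mitochondrial leucyl-tRNA synthetase and lies on chromosome 9 (123276045 to 123371793). It had 2281 and 1492 CPM with 300 ng, 9988 and 11295 CPM with 3 ng, and 23515 and 29943 CPM with 30 pg, which is 2.35% and 2.99% of the counts. The 3 amounts did not overlap, and it rose with 3 ng (log2 2.40 ± 0.17 SE, edgeR adjusted p = 6.41e-13) and with 30 pg (log2 3.51 ± 0.28, edgeR adjusted p = 0.0495). The ratio of mean CPM to that with 300 ng was 5.64 and 14.2. None of the 3800 stretches of 30 bases compared in its exons occurs in the 5833 bases of Rn45s or in the mitochondrial genome, and other rRNA sequence was not compared. The authors' reference held no mitochondrial chromosome, so mitochondrial reads could still align to nuclear copies, and Gm20594, which went from 8.77 and 8.88 CPM with 300 ng to 162 and 153 CPM with 3 ng, shares 44 of 305 such stretches with the mitochondrial genome.

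The remaining genes that rose most with 3 ng had mixed fates with 30 pg. Lnpep, an aminopeptidase, had 4.09 and 4.33 CPM with 300 ng and 66.3 and 53.8 CPM with 3 ng (log2 3.70 ± 0.28 SE, edgeR adjusted p = 4.01e-12), but 8.38 and 0 CPM with 30 pg. Uxs1, the enzyme that makes UDP-xylose, had 7.79 and 5.83 CPM and then 62.3 and 68.0 CPM (log2 3.20 ± 0.27, edgeR adjusted p = 3.15e-11), but 0.729 and 0 CPM with 30 pg. The rise of these genes with 3 ng was therefore not seen with 30 pg. Gm7429 behaved likewise (3.12 and 3.69, 45.9 and 85.5, 4.37 and 0 CPM), while Gm15421 had 4.29 and 1.42, 78.6 and 49.5, and 48.1 and 182 CPM. Both are predicted genes whose reads may be shared with other copies, so their levels are uncertain. Gm15421 also passed the filter on low counts only through its level with 3 ng, which favours a rise.

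With 30 pg, 5 more genes were named as highest among those called, beside H1f4, H1f5 and Lars2. Slc25a17, a peroxisomal transporter, had 10.5 and 11.7 CPM with 300 ng, 17.4 and 22.4 CPM with 3 ng, and 124 and 204 CPM with 30 pg, so it rose mainly with the smallest amount (ratio of mean CPM 14.8). Dhx9, an RNA helicase, had 35.8 and 28.8 CPM with 300 ng, 269 and 274 CPM with 3 ng, and 224 and 272 CPM with 30 pg. Cd9, a tetraspanin at the cell surface, had 54.7 and 59.0, 240 and 233, and 269 and 408 CPM. For these genes, and for Malat1 and the glycolytic enzyme Pgam1 (49.1 and 49.2, 183 and 190, 266 and 269 CPM), both smaller amounts lay above both 300 ng libraries. The edgeR adjusted p with 30 pg was 0.0495 for each of them. Pgam1 has many processed pseudogenes in the mouse genome, so its level is uncertain.

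Among genes with a mean of at least 50 CPM with 300 ng, those that fell most with 3 ng were GC-rich coding genes. Gga1, an adaptor of Golgi sorting, had 106 and 136 CPM with 300 ng and 30.6 and 23.0 CPM with 3 ng (log2 -2.31 ± 0.22 SE, edgeR adjusted p = 5.16e-10). Fkbp8, a mitochondrial immunophilin, had 155 and 200 CPM and then 41.3 and 39.6 CPM (log2 -2.24 ± 0.20, edgeR adjusted p = 1.63e-10). With 30 pg these genes lay at 34.3 and 136 CPM and at 178 and 83.5 CPM, which overlaps with 300 ng for both. Ninj1, Sipa1, the RNA helicase Mov10, the deoxyhypusine hydroxylase Dohh, the Integrator subunit Ints5 and the mitochondrial carrier Slc25a38 followed with log2 fold changes of -2.22 to -2.10. The exons of these 8 genes had a GC content of 55.7% to 63.7%, against a median of 50.7% over all genes tested. With 30 pg, Dohh had 147 and 0 CPM, and Ninj1, Sipa1 and Slc25a38 were also missing from 1 library.

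With 30 pg the named genes that fell were those with at most 2 counts left. Besides Coq9, Atad3a and Rrp36, they were Ttc7b, which helps to place a phosphatidylinositol kinase at the membrane, the SCAN domain gene Scand1, the transcription factor Nfic and the zinc finger genes Zfp414 and Zfp574. Scand1 had 154 and 131 CPM with 300 ng and 82.2 and 116 CPM with 3 ng, and 2 counts and 0 counts with 30 pg (edgeR adjusted p = 0.0495). Zfp574 had 101 and 127 CPM, then 36.2 and 46.2 CPM, and also 2 and 0 counts. Ttc7b, Nfic and Zfp414 had 1 count in the first 30 pg library and none in the second. All of these named genes passed the filter on low counts only through their level with 300 ng, which favours a fall.

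**Figure D4:**
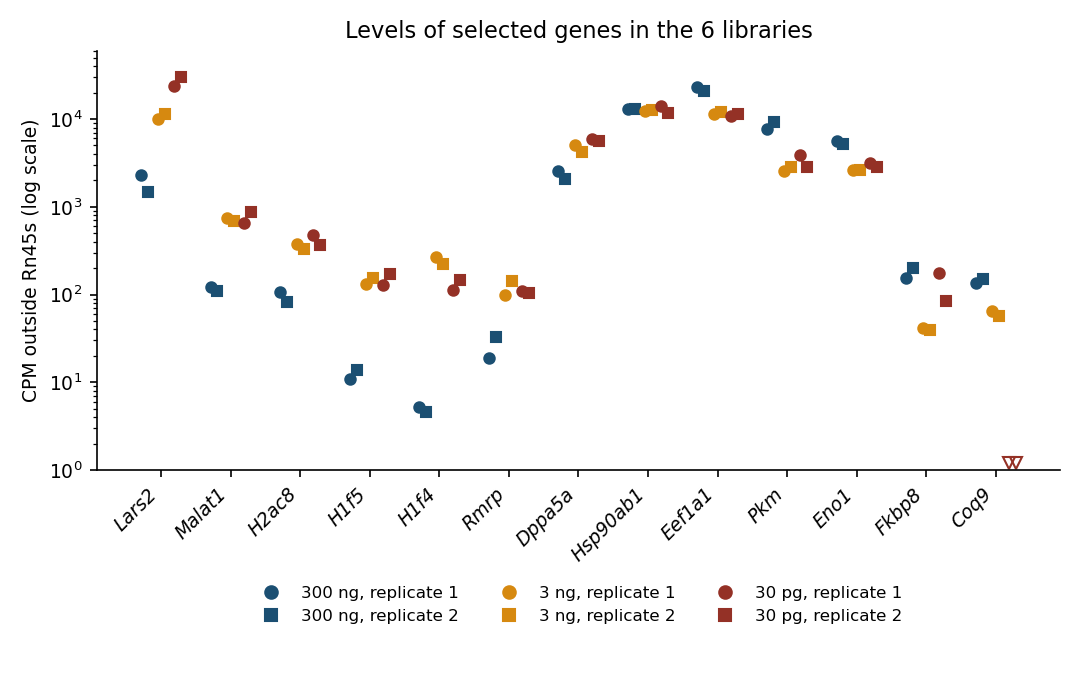
Level (CPM outside Rn45s, log scale) of 13 genes in the 6 libraries. Open triangles at the axis stand for 0 counts. Lars2 climbs from 1492 CPM at the lowest to 29943 CPM at the highest, Hsp90ab1 stays between 11782 and 14065 CPM, and Coq9 disappears with 30 pg.

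Among abundant mRNAs, more glycolysis genes fell than rose with 3 ng, and more chaperones rose than fell. The glycolysis list took 2.40% and 2.80% of the counts with 300 ng, 1.27% and 1.34% in the 3 ng libraries, and 1.85% and 1.61% with 30 pg. All 17 members were tested with 3 ng, 9 fell and 2 rose, with a median of -0.78 beside -0.03 for all genes, of which 26.6% fell and 26.0% rose. Pkm, pyruvate kinase, had 7692 and 9188 CPM with 300 ng, 2555 and 2852 CPM with 3 ng, and 3850 and 2813 CPM with 30 pg. It fell with 3 ng (log2 -1.75 ± 0.15 SE, edgeR adjusted p = 1.15e-10), and with 30 pg it just missed the threshold (-1.63 ± 0.30, edgeR adjusted p = 0.0532). Eno1, enolase, fell from 5619 and 5211 CPM to 2635 and 2591 CPM (edgeR adjusted p = 1.38e-07), and Ldhb, a lactate dehydrogenase subunit, from 1305 and 1556 CPM to 414 and 435 CPM (edgeR adjusted p = 9.81e-11). Hk2 and Pgam1 rose. The exon GC content was 57.6% for Pkm, 55.5% for Eno1 and 53.1% for Pgam1. Of all tested genes with at least 55.4% GC, 63.3% fell with 3 ng. The part of GC content in the changes of this list was not tested. Gapdh stood at 4.01 to 9.28 CPM in all 6 libraries. Reads that map to several places were not counted, and their part in this level was not tested. With 30 pg, 1 of the 17 members rose, Pgam1, and none fell, with a median of -0.50 beside -0.48 for all genes.

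Of 25 chaperones, 13 rose and 4 fell with 3 ng (median 0.42), and none passed with 30 pg (median 0.04). Over all genes tested, 26.0% rose and 26.6% fell with 3 ng. Hspa5, the endoplasmic reticulum chaperone BiP, rose from 327 and 243 CPM to 860 and 684 CPM with 3 ng (log2 1.34 ± 0.17 SE, edgeR adjusted p = 1.12e-07). Npm1, nucleophosmin, rose from 396 and 287 CPM to 1468 and 1295 CPM, and it stayed at 1524 and 1240 CPM with 30 pg (edgeR adjusted p = 1.19e-10 and 0.0511). Hsp90ab1 did not pass, with 12945 and 13160 CPM, 12356 and 12828 CPM, and 14065 and 11782 CPM (edgeR adjusted p = 0.372 and 0.522). Fkbp4 and Cct7 are among the members that fell with 3 ng. The part of GC content in the changes of the chaperones was not tested either.

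Of 31 splicing factors, 14 rose and 4 fell (median 0.48), among them Srsf1 (46.4 and 23.2 CPM, then 183 and 181 CPM, edgeR adjusted p = 5.60e-10) and Hnrnpu (570 and 400 CPM, then 1239 and 1310 CPM, edgeR adjusted p = 1.33e-07). Of 30 Polycomb and trithorax genes tested, 15 rose and 8 fell (median 0.40). Rbbp4, a histone-binding subunit, rose from 206 and 153 CPM to 655 and 645 CPM (edgeR adjusted p = 5.68e-10), and Kmt2d, a histone H3K4 methyltransferase, fell from 155 and 209 CPM to 76.0 and 102 CPM (edgeR adjusted p = 1.31e-05). The exon GC content of these 4 examples was 40.5% for Srsf1, 42.2% for Hnrnpu, 43.8% for Rbbp4 and 58.4% for Kmt2d. Of 261 tested genes named Zfp, most of which encode zinc finger proteins, 88 rose and 38 fell (median 0.50). Beside these 3 lists stood 26.0% higher and 26.6% lower with 3 ng over all genes tested, and the Zfp genes had 33.7% and 14.6%. With 30 pg, 1 splicing factor, 1 Polycomb and trithorax gene and 23 of 202 Zfp genes fell and none rose, beside 8.3% lower and 0.162% higher over all genes tested. Expression level was not matched here.

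Of 77 ribosomal protein genes tested with 3 ng, 21 rose and 20 fell (median -0.09), and of 35 translation factors 15 rose and 11 fell (median 0.04). The ribosomal protein genes, at 27.3% and 26.0%, lay near the shares over all genes tested, 26.0% higher and 26.6% lower. The translation factors stood at 42.9% and 31.4%. Eef1a1, the elongation factor that led the 300 ng libraries, fell from 23085 and 20867 CPM to 11343 and 11915 CPM with 3 ng and to 10923 and 11275 CPM with 30 pg (log2 -1.02 ± 0.14 and -1.29 ± 0.15 SE, edgeR adjusted p = 5.37e-07 and 0.0495). Its level with 3 ng and with 30 pg was nearly the same. Of the other leading genes with 300 ng, Rack1, a ribosome-bound scaffold, fell with 3 ng (7483 and 8583 CPM, then 3689 and 3957 CPM, edgeR adjusted p = 1.06e-07), as did Rpl41 and Rps3. Rpl4 and Pabpc1, the cytoplasmic poly(A)-binding protein, did not pass with 3 ng, with edgeR adjusted p of 0.309 and 0.0667. Together the 100 leading genes of each library took 27.3% and 27.03% of the counts with 300 ng, 23.5% and 23.2% in the 3 ng libraries, and 25.9% and 26.0% with 30 pg, and the exact two-sided permutation test for an ordered trend gave p = 0.578 (adjusted p = 0.578). The 3 ng libraries lay lowest of the 6.

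Of 86 genes of the nuclear-encoded respiratory chain, 24 rose and 22 fell with 3 ng (median 0.04), of 36 proteasome subunits 15 and 8 (median 0.15), of 32 DNA replication licensing genes 12 and 11 (median 0.02), and of 13 snoRNA host genes 5 and 0 (median 0.20). Beside these and the lists that follow stood 26.0% higher and 26.6% lower over all genes tested. The respiratory chain genes, at 27.9% and 25.6%, lay near those shares. Of 5 tested small nucleolar and Cajal body RNAs 1 rose and 1 fell, and of 8 tested genes named Mir 3 rose. Of 80 predicted genes named Gm, 22 rose and 8 fell (median 0.33), and of 224 genes named by a RIKEN clone, 34 and 34 (median -0.02). Olfactory and vomeronasal receptors, which mESCs hardly express, took at most 0.00244% of the counts in any library. With 30 pg, each of these lists had at most 1 call except the Gm and RIKEN genes, with 14 and 34 lower and 0 and 1 higher. Those were 23.3% and 18.2% lower, beside 8.3% over all genes tested. The expression level of the lists was not matched to that of all genes, and most falls with 30 pg were of weak genes.

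Hox genes, which Polycomb keeps at low levels in mESCs, were weak at every amount. Of 39 genes, 27 and 33 had counts with 300 ng, 19 and 22 in the 3 ng libraries, and 1 and 2 with 30 pg. Hoxc13 had 17.1 and 18.0 CPM with 300 ng, 15.3 and 14.8 CPM with 3 ng, and no counts with 30 pg, and Hoxb13 had 14.8 and 20.1, 8.68 and 13.6, and 0 CPM. Hoxc9 had 6.82 and 4.83 CPM with 300 ng and 0 and 49.5 CPM with 30 pg. None of 10 tested Hox genes passed with 3 ng (median -0.33). With 30 pg 4 fell, beside 8.3% over all genes tested, among them Hoxa7, which had no count there. With 1 and 2 Hox genes detected there, those tested passed the filter on low counts mainly through 300 ng. That favours a fall, so nothing is read from this count.

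Of the 15 markers of embryonic stem cells, 6 rose and 3 fell with 3 ng (median 0.19), and none passed with 30 pg (median -0.14). Over all genes tested, 26.0% rose and 26.6% fell with 3 ng. Dppa5a, the most abundant, had 2566 and 2049 CPM with 300 ng, 5083 and 4257 CPM with 3 ng, and 5874 and 5565 CPM with 30 pg (edgeR adjusted p = 1.18e-05 with 3 ng and 0.0601 with 30 pg). Nanog had 186 and 198, 208 and 242, and 296 and 189 CPM, and Pou5f1 had 237 and 274, 338 and 391, and 479 and 408 CPM. Pou5f1 passed with 3 ng (edgeR adjusted p = 0.0381) and Nanog did not (0.557). Mybl2, a cell-cycle transcription factor, fell with 3 ng from 239 and 280 CPM to 115 and 151 CPM (edgeR adjusted p = 1.10e-05). Lin28a, an RNA-binding regulator of let-7, had 50.6 and 50.0, 70.4 and 80.7, and 34.3 and 18.6 CPM.

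Base composition went along with the change with 3 ng across the whole transcriptome. GC content was read from the exons in the reference of the files' build, for 25065 genes, and genes were cut into 4 equal groups by it. Across 11085 genes, the log2 fold change of 3 ng against 300 ng had a Spearman correlation of -0.74 with the GC content, and genes are not independent replicates. In the group of tested genes with the lowest GC content (up to 45.9%), 1849 of 2772 rose and 21 fell, with a median of 0.93. In the group with the highest (55.4% and above), 59 of 2771 rose and 1754 fell, with a median of -0.91. Of these 59 risers 20 were replication-dependent histones, most of whose tested members passed the filter only through their level with 3 ng, so nothing is read from that count.

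The relation with GC content was also seen within groups of expression level, which each span 10-fold, so level was not held equal. Among genes of 10 to 100 RPKM the group of lowest GC content had 617 risers and 43 fallers of 1087, and that of highest GC content 17 and 845. Among genes of 1 to 10 RPKM these numbers were 877 and 4, and 27 and 551, of 1237. Exon length and runs of A went along with the change more weakly, with Spearman correlations of 0.24 and 0.37 across genes with 3 ng. The group of shortest exons had a median of -0.30 and that of longest exons 0.40, and the group with the shortest A runs -0.64 and that with the longest 0.31.

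With 30 pg the same tendency stood within a wider spread. The Spearman correlation with GC content was -0.27 across 10502 genes, and the medians were 0.19 in the group of lowest GC content and -1.10 in that of highest. By share of counts, the 6267 genes in the group of lowest GC content among all genes took 9.77% and 7.66% in the 300 ng libraries against 18.1% and 16.9% in the 3 ng libraries, and had 13.0% and 14.2% in the 30 pg libraries. The group of highest GC content took 33.2% and 37.9%, 22.3% and 24.1%, and 28.7% and 27.1%. In both shares the 3 ng libraries were farthest from the 300 ng libraries and the 30 pg libraries lay between them, without overlap.

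**Figure D5:**
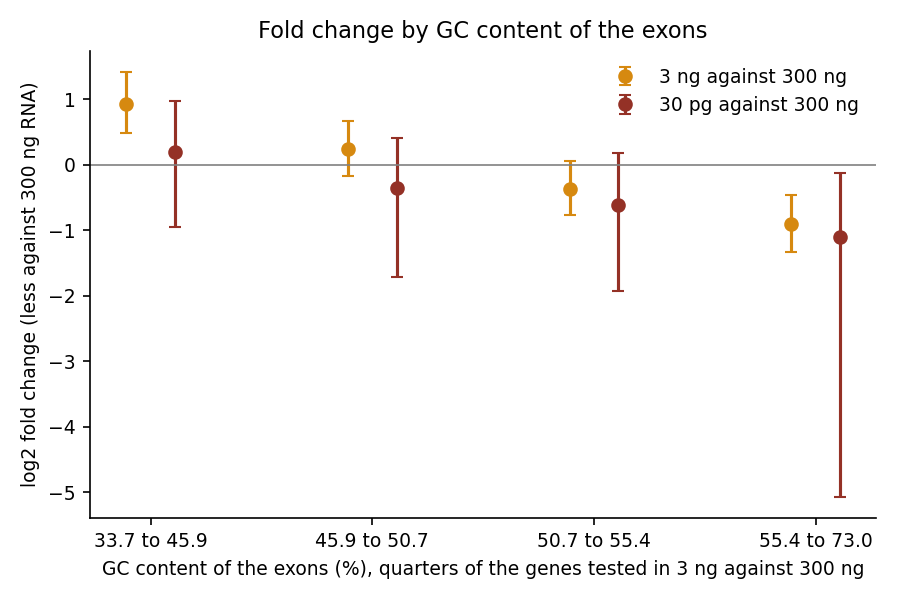
Median log2 fold change against 300 ng (points) with the middle 50% of genes (bars), for the 4 groups of genes tested by the GC content of their exons (x axis, %, bounds of the 3 ng comparison). The medians with 3 ng run from 0.93 to -0.91 and those with 30 pg from 0.19 to -1.10.

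Whether a gene of 1 to 10 RPKM was found at all with 30 pg went along with length and GC content as well. At equal depth, 23.1% and 12.4% of the genes in the group of shortest exons (up to 2075 bases) were expected with 30 pg, against 73.6% and 55.0% in the group of longest exons. With 300 ng these shares were 59.2% and 59.5%, and 97.9% and 97.8%, so short genes were missed more often at every amount, since a gene of a given RPKM has counts in proportion to its length. By GC content, 68.8% and 48.1% of the genes in the lowest group and 29.2% and 21.1% in the highest were expected with 30 pg. With 3 ng the 2 ends stood at 95.2% and 94.6%, and 64.6% and 66.3%, and with 300 ng at 91.3% and 89.4%, and 75.8% and 78.7%. Genes poor in GC were thus found slightly more often with 3 ng than with 300 ng, and genes rich in GC less often.

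Coding genes and long noncoding RNAs were also counted apart. At equal depth, 10754 and 10792 of 20830 coding genes were expected with 300 ng, 10765 and 10799 in the 3 ng libraries, and 7849 and 6201 with 30 pg. Of 2522 long noncoding RNAs, 225 were expected in each 300 ng library, 241 and 247 with 3 ng, and 99.4 and 82.0 with 30 pg. As a sum, long noncoding RNAs still took more of the counts with less RNA, with 0.353% and 0.350%, 0.475% and 0.446%, and 0.496% and 0.535%. In CPM this sum was 3531 and 3497, 4754 and 4459, and 4959 and 5346. Malat1 alone had 122 and 108, 743 and 686, and 645 and 878 CPM of it, so 1 gene weighed heavily in the rise. Of 172 tested with 3 ng, 33 (19.2%) rose and 14 (8.14%) fell (median 0.12), beside 26.0% and 26.6% over all genes tested. With 30 pg, 3 of 130 rose and 27 fell (median -0.64 beside -0.48 for all genes), against 0.162% higher and 8.3% lower over all genes tested. The expression level of the classes was not matched in these counts.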

How the data were processed

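The authors trimmed reads with Trim Galore 0.6.4 and aligned them with STAR 2.5.4b to mm9 without mitochondrial and random chromosomes, and read pairs on exons were counted by featureCounts 2.0.0 (version and command per the file headers) without strand and without multi-mapping reads. What was deposited are the raw counts for 25209 genes. No molecular identifiers were used, so limits and floors cover counting error only. Members and gene lists were chosen with earlier results of these data known.

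From the counts, Rn45s was removed, and each pair of amounts was fitted alone in edgeR 4.0.16 (TMM, filterByExpr, quasi-likelihood test, Benjamini-Hochberg over all genes tested, called at an adjusted p below 0.05), tested on simulated data. Ordered trends used an exact permutation test of the Jonckheere-Terpstra statistic over 90 assignments. Genes were named as the 8 most changed in each direction among called genes with levels that did not overlap and a mean of at least 50 CPM, the 10 leading genes with 300 ng, the 8 strongest of each kind of lost, gained or unshared gene, and members of 26 lists, 5S rRNA genes among them, which matched none. Exon sequence came from the reference of the mm9 build, and gene classes from RefSeq. Alternatives were DESeq2 1.42.0, its size factors, TMMwsp, no filter, 1 fit of all 6 libraries, Rn45s kept, equal depth, a replicate block, genes averaging at least 50 CPM (added after seeing the data) and each library left out. Calculations used R 4.3.3 and Python 3.11.15 with numpy 2.4.6, pandas 2.3.3, scipy 1.17.1 and matplotlib 3.10.9. A few single-gene results of these lists are not reported here.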

Additional observations from a re-analysis of the deposited data

How the results depend on the processing

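The number of genes called moved most. For 3 ng against 300 ng (5833) it was 0 in 1 fit of all 6 libraries, 2346 at equal depth, 2619 among genes averaging at least 50 CPM, a setting chosen after seeing the data, and 4206 to 5595 with 1 library left out. For 30 pg against 300 ng (889) it was 0 with DESeq2 size factors, TMMwsp, Rn45s kept, equal depth and at least 50 CPM, 416 with DESeq2, 2522 without a filter and 2445 in the fit of 6. Left-out libraries gave 1 without the second and 2 without the first 300 ng library, and 6619 and 8054 without the first and second 30 pg library. For 30 pg against 3 ng (0) it was 109 with DESeq2, 2137 in the fit of 6, and 0 to 7554 with 1 library left out, 6414 and 7554 of them without a 30 pg library. Where 1 library stood alone, its spread was taken from the other amount. In 3 ng against 300 ng all 16 named genes stayed called under every setting except the fit of 6 (0), and at 50 CPM all 7 tested. In 30 pg against 300 ng all 16 were called with DESeq2, the fit of 6, no filter and without either 30 pg library, 9 with the block, 1 without the first 300 ng library and 0 otherwise.

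The labels do not say that a replicate number marks a shared source. Differences between replicates correlated across 4426 genes by 0.30 between 300 ng and 3 ng, -0.03 between 300 ng and 30 pg and 0.01 between 3 ng and 30 pg, so the replicate numbers were not taken as a pairing. With a replicate block the calls were 6289, 136 and 1.

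Genes with 3 ng as a share of 300 ng were 103.5% with at least 5 counts, 81.9% at equal total counts with Rn45s and 86.1% without thinning (100.4% in each left-out case), and with 30 pg 84.9%, 57.4% and 47.0% (57.0% to 72.3%). The ordered trend then had an adjusted p of 0.0333 at equal total counts and without thinning. The leading genes took 9.12%, 7.23% and 9.23% for 10 genes, 59.7%, 56.9% and 60.0% for 1000 genes, and 40.1%, 85.9% and 75.1% with Rn45s kept, where the trend turned upwards, as for 10 genes (adjusted p = 0.578 and 0.844). Left-out libraries gave 27.03% to 27.3%, 23.2% to 23.5% and 25.9% to 26.0%. Genes of 1 to 10 RPKM with 300 ng and 3 ng were 78.0% and 79.2% by levels of ligation-based libraries, 88.0% and 85.7% by those of 300 ng, 40.7% and 46.2% with at least 5 counts, and 99.2% and 95.5% without thinning, and the trend had an adjusted p of 0.578, 0.0667, 0.844 and 0.0667. Left-out libraries gave 84.0% to 84.3%, 81.8% to 82.1% and, with 30 pg, 34.1% to 50.2%. The causes were not tested. At 323449 counts, 3 counts are worth 9.28 CPM.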

Other observations

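In the libraries of SET-seq, in which cytoplasmic RNA was taken from counted cells, Lars2 had 8433 and 7407 CPM outside Rn45s with 10000 cells, 6832 and 3841 CPM with 1000 cells, 16321 and 6161 CPM with 100 cells, and 25038 and 16710 CPM with 10 cells. The 2 libraries of 10 cells lay above the others, by little in 1 case, and this was not tested. In the 6 libraries of the Tn5-amount experiment it ranged from 994 to 3063 CPM. H1f4 had 35.4 and 19.9 CPM with 10000 cells, 72.5 and 71.6 CPM with 1000 cells, 71.5 and 70.1 CPM with 100 cells, and 46.0 and 0 CPM with 10 cells, so it did not keep rising as cells became fewer. Malat1 had 59.5 and 82.2 CPM with 10000 cells, 76.2 and 251 CPM with 1000 cells, 84.4 and 159 CPM with 100 cells, and 86.4 and 127 CPM with 10 cells, with no steady order. Pkm had 4336 and 3980 CPM with 10000 cells, 3518 and 2670 CPM with 1000 cells, 3519 and 4136 CPM with 100 cells, and 2894 and 3479 CPM with 10 cells. Dppa5a had 1653 and 1211, 1916 and 2010, 2203 and 2356, and 2332 and 2194 CPM.

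With all genes cut into 4 equal groups by GC content, the lowest group took 5.95% to 8.85% of the counts with 10000 cells of SET-seq, 11.0% to 15.2% with 1000 cells, 12.2% to 12.9% with 100 cells and 13.6% to 13.8% with 10 cells, and 6.85% to 8.67% in the Tn5-amount libraries. The highest group took 37.3% to 40.5%, 28.7% to 34.3%, 32.19% to 32.25% and 29.1% to 30.6% by cell number, and 36.6% to 39.5% in the Tn5-amount libraries. The libraries that varied the temperature and time of tagmentation ranged more widely. In them the lowest group took 8.88% to 18.6% and the highest 25.1% to 36.9%, so such shares also differed where the titles name no RNA amount. These differences were not tested.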
